A study of Mus musculus with 12 samples.

Results

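Promoters of long noncoding RNAs (lncRNAs) were examined in an ATAC-seq comparison of mouse embryonic fibroblasts (MEFs) on day 2 of doxycycline induction. A window was taken as an lncRNA promoter if it lay within 1 kb of an annotated start of a long noncoding gene and more than 1 kb from every protein-coding start in the GENCODE M21 annotation of mm10. Of 176680 windows in the deposited table, 2975 met this definition. They lay nearest to 2634 different lncRNA genes. For comparison, 16595 windows lay within 1 kb of a protein-coding start, and the remaining 157110 lay elsewhere. Another 1548 windows near an lncRNA start were left out because a coding start lay within the same distance.

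The 12 libraries came from wild-type C57BL/6N embryos at E13.5 and fell into 4 groups of 3 replicates. All groups received lentivirus for rtTA, the transactivator that responds to doxycycline. MEF received nothing else, and Prox1_OE also received a FLAG-tagged mouse Prox1. 4in1_GFP_OE and 4in1_Prox1_OE both received the 4in1 cassette of hepatocyte transcription factors, with GFP in the former and Prox1 in the latter. All transgenes were lentiviral and were expressed under doxycycline in cultured fibroblasts, so the endogenous Prox1 locus was not what was altered. The table compares the last 2 of these groups and rests on 6 libraries. It gives the mean normalized read count of each group for each window, on a log2 scale, without values for single libraries, so that no spread between replicates could be computed. The pair of deposited peak lists, called the GFP-enriched and the Prox1-enriched list below, are the authors' own calls across replicates. Here "fell" and "rose" with Prox1 are written only of windows in the GFP-enriched and the Prox1-enriched list, respectively, and differences are Prox1 minus GFP on the log2 scale. The promoters of the fibroblast genes Col1a1, Col1a2, Thy1, Pdgfra and Vim all had windows, while those of the hepatocyte genes Alb, Ttr, Apoa1 and Fgb had 0.

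ATAC-seq reads gather where DNA is free of nucleosomes, as it is at active promoters and enhancers. Protein-coding promoters are often CpG islands, stretches rich in the CG dinucleotide that stay open in many cell types. Many lncRNA starts lack such an island and lie in or near enhancers, whose accessibility depends on the transcription factors of the cell. Some lncRNAs act on chromatin or nuclear structure, others carry microRNAs or small nucleolar RNAs in their introns, and many are known by little more than an identifier. Prox1, a homeodomain factor of hepatocytes, is described by the study as a repressor there, while it can act as an activator in other lineages.

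The sequences of 8 of these windows are given first because they show the range of the data. They are the 3 windows with the lowest and the 3 with the highest difference that could be printed, among the 1738 windows at or above the median level of all windows, followed by the 2 most accessible. Capitals mark matches to 12 short transcription factor motifs on either strand. Each sequence is the plus strand of GRCm38.p6 (mm10), 5′ to 3′, and no window overlaps an exon of a coding gene.

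Those with the lowest difference are the window over the start of Gm16508 at chr3:41290541-41290741, one upstream of Gm34276 at chr13:44569364-44569564 and one upstream of E230016K23Rik at chr11:83580950-83581150.
Gm16508: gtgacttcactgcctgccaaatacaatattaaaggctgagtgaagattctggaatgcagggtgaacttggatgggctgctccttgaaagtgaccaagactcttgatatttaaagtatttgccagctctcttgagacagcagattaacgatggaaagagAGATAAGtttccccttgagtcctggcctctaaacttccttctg
Gm34276: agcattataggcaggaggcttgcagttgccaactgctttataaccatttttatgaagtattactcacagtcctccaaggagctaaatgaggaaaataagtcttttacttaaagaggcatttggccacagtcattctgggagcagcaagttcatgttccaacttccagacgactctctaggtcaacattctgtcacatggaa
E230016K23Rik: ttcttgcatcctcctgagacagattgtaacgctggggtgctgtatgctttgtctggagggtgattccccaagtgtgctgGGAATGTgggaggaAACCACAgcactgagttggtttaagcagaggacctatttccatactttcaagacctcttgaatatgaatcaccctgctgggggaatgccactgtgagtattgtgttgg
The capitals are a GATA match in Gm16508 and, in order, a TEAD and a RUNX match in E230016K23Rik. Each of the 3 windows holds 1 CG dinucleotide, and the Gm34276 window holds no match.

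Those with the highest difference are the window over the start of Dbhos at chr2:27162681-27162881, one upstream of 1810053B23Rik at chr16:93366968-93367168 and one just downstream of the start of Gm45355 at chr7:113295097-113295297.
Dbhos: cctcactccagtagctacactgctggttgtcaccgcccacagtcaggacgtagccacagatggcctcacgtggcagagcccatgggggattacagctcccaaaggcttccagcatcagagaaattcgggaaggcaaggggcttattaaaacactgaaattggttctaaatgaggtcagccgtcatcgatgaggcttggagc
1810053B23Rik: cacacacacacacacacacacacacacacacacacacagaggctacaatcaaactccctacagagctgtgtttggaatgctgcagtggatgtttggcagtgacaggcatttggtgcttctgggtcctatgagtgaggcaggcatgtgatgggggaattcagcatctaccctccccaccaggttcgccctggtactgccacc
Gm45355: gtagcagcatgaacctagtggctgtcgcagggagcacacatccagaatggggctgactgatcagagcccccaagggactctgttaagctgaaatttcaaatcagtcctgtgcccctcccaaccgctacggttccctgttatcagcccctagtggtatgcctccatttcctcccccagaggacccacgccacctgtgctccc
None of them holds a match to the 12 motifs. Dbhos has 6 CG dinucleotides, Gm45355 has 4 and 1810053B23Rik has 1.

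The most accessible windows lie just upstream of Gm44686 at chr7:73537796-73537996 and over the start of 1700028E10Rik at chr5:151368546-151368746.
Gm44686: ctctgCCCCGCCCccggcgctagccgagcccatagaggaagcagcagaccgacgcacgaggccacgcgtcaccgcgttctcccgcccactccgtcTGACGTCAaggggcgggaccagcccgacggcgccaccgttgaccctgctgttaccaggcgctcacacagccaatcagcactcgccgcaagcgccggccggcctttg
1700028E10Rik: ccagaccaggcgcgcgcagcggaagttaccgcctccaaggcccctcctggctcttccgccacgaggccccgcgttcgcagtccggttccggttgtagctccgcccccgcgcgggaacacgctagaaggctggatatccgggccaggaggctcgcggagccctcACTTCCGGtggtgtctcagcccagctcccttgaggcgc
They hold 25 and 22 CG dinucleotides. The capitals are an SP/KLF and a CRE match in Gm44686, and an ETS match in 1700028E10Rik.

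Accessibility at lncRNA promoters was on the whole lower with Prox1. Their median level was 145 normalized reads with GFP and 108 with Prox1, and the median difference was -0.37, with quartiles at -0.86 and 0.03. The median difference was -0.20 at coding promoters, -0.49 at other windows and -0.42 over all windows. The whole table is shifted downwards, since its summed reads were 0.751 times as high with Prox1 as with GFP. Relative to the median of all windows, the median lncRNA promoter therefore stood at 0.05, so that its direction turns with the choice of zero. Against the same zero, coding promoters stood at 0.22 and other windows at -0.07. The part of scaling in this shift was not tested. In these bulk libraries, an accessible window in fewer cells and a less accessible window in each cell cannot be told apart.

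At least 2-fold lower levels with Prox1 were found at 580 lncRNA promoters (19.5%), where the share of all windows was 24.4%. At least 2-fold higher levels were found at 168 (5.65%), against 8.33% of all windows. After centring on the median of all windows, 158 lncRNA promoters (5.31%) were at least 2-fold lower and 318 (10.7%) at least 2-fold higher, against 8.64% and 13.4% of all windows. By the authors' calls, 1384 lncRNA promoters (46.5%) fell and 365 (12.3%) rose, close to the 48.2% and 14.9% of all windows. Of the 1384 that fell, 0 had a positive difference as deposited, but 54 stood above the median of all windows. For these 54 the direction turns with the choice of zero. Of coding promoters, 22.4% fell and 6.16% rose. Neither list held 1226 lncRNA promoters (41.2%) and 71.5% of coding promoters. In these shares lncRNA promoters were thus nearer to the average window than to coding promoters.

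**Figure D1:**
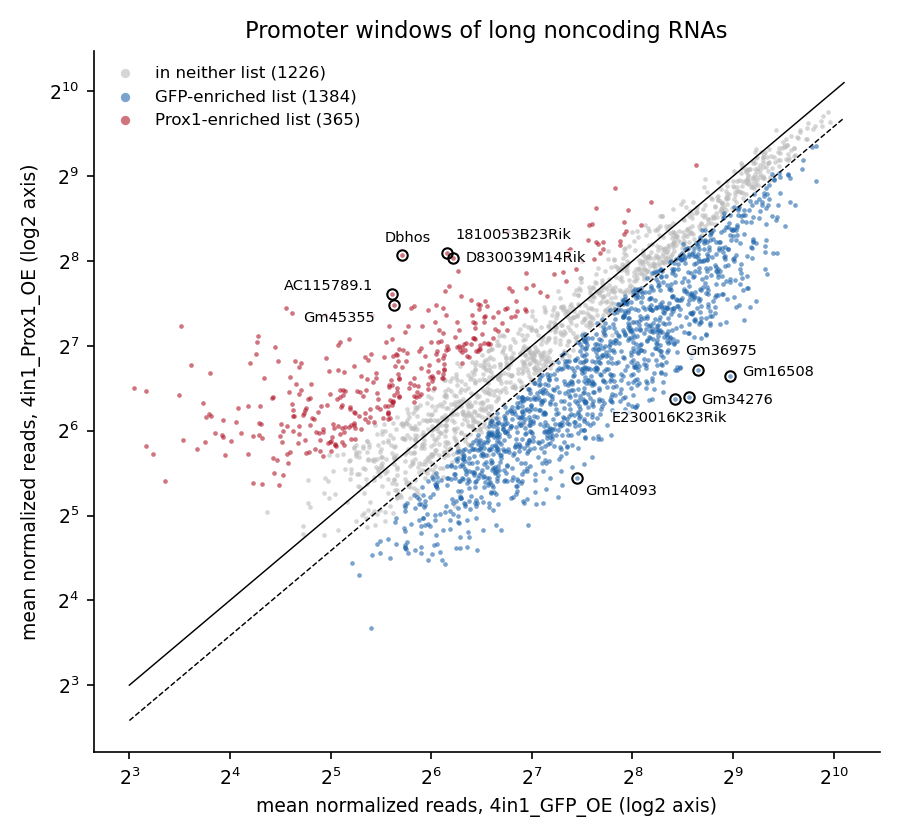
Mean normalized reads of the 2975 lncRNA promoter windows in 4in1_GFP_OE (horizontal) and 4in1_Prox1_OE (vertical), both on log2 axes, 1 point per window coloured by deposited list. The solid line is equality, the dashed line is the median of all windows (-0.42), and the 5 lowest and 5 highest named windows are circled. The 365 windows of the Prox1-enriched list lie mostly at low GFP levels, and the 1384 of the GFP-enriched list lie at higher ones.

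Levels in each group are given by list as a description, since the lists were themselves drawn by the difference between these levels. For the windows that rose the median was 48.2 reads with GFP and 99.04 with Prox1. The windows that fell went from a median of 198 to 99.6 reads. Windows in neither list had medians of 130 and 122 reads. Low windows also vary more by counting error, which cannot be weighed without values per library. When all windows were split into 4 bins of equal size by level, 26.1% of the 595 lncRNA promoters in the lowest bin rose and 28.2% fell. In the highest bin, 2.84% of the 1055 rose and 53.6% fell. Other windows went the same way, with 29.6% risen and 32.4% fallen in the lowest bin and 2.92% and 64.5% in the highest, so the rise at low levels was not particular to lncRNA promoters.

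At least 4-fold lower levels were found at 6 lncRNA promoters (0.202%, against 0.367% of all windows) and at least 4-fold higher levels at 39 (1.31%, against 2.22%), whereas at 2-fold more windows were lower than higher. After centring, the 4-fold counts were 0 and 73, against 0.0113% and 4.02% of all windows. Among windows at or above the median level, the lowest difference belonged to Gm16508, a lincRNA whose start window had 502 reads with GFP and 99.7 with Prox1 (-2.33). The Gm34276 window went from 378 to 84.0 reads (-2.17), and that of E230016K23Rik, whose nearest coding start is that of the chemokine gene Ccl9, from 342 to 82.9 (-2.05). Gm14093, in an intron of Slc24a3, went from 174 to 43.4 (-2.01) and Gm36975, antisense to Rabgap1l, from 401 to 105 (-1.93). All 5 fell by the authors' calls, and relative to the median of all windows they stood between -1.91 and -1.52.

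The highest difference belonged to Dbhos, an antisense RNA beside Dbh, the enzyme that makes noradrenaline from dopamine. Its start window had 52.2 reads with GFP and 270.1 with Prox1 (2.37). The AC115789.1 window went from 48.9 to 195 reads (2.00) and the 1810053B23Rik window from 71.4 to 273 (1.93). Gm45355, antisense to the circadian regulator Arntl, went from 49.6 to 179 (1.85) and D830039M14Rik, antisense to Lrrc20, from 74.6 to 263 (1.82). All 5 rose by the authors' calls. Their GFP levels were all below the median level of all windows, so they met the level limit through the Prox1 group.

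The most accessible lncRNA promoters were in neither list. Gm44686, antisense to the chromatin remodeller Chd2, had 984 reads with GFP and 866 with Prox1 (-0.18). The 1700028E10Rik window had 996 and 796 (-0.32), and that of the noncoding gene listed as Zswim6 had 954 and 837 (-0.19). Mir22hg, a microRNA host, had 940 and 804 (-0.23), and 1700096K18Rik had 943 and 774 (-0.29). These small negative differences all turn positive, from 0.09 to 0.23, when centred on the median of all windows.

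Differences at lncRNA promoters went with CpG content. A window was called CpG-rich when its GC content was at least 50% and its observed to expected CG ratio at least 0.6. This was met by 461 of the 2975 lncRNA promoters, against 11135 of 16595 coding promoters. CpG-rich lncRNA promoters had a median difference of -0.17, next to -0.18 at CpG-rich coding promoters. At least 2-fold lower levels were found at 1.52% of them and at least 2-fold higher levels at 1.74% (0.217% and 6.94% after centring). Of CpG-rich lncRNA promoters 21.7% fell and 11.1% rose, against 12.6% and 4.24% of CpG-rich coding promoters. The 2514 CpG-poor lncRNA promoters had a median of -0.46, and 51.1% of them fell. CpG-poor coding promoters had a median of -0.32, and 42.3% of them fell. CpG-poor windows elsewhere had a median of -0.50, and 51.6% of them fell. Level was part of these classes, since CpG-rich lncRNA promoters had a median of 333 reads with GFP and CpG-poor ones 128. Within the highest bin of level, the medians were -0.20 at CpG-rich and -0.61 at CpG-poor lncRNA promoters, and 24.3% and 66.9% of them fell. Other windows of that bin were close to this, with medians of -0.21 and -0.64 and fallen shares of 29.9% and 67.0%.

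**Figure D2:**
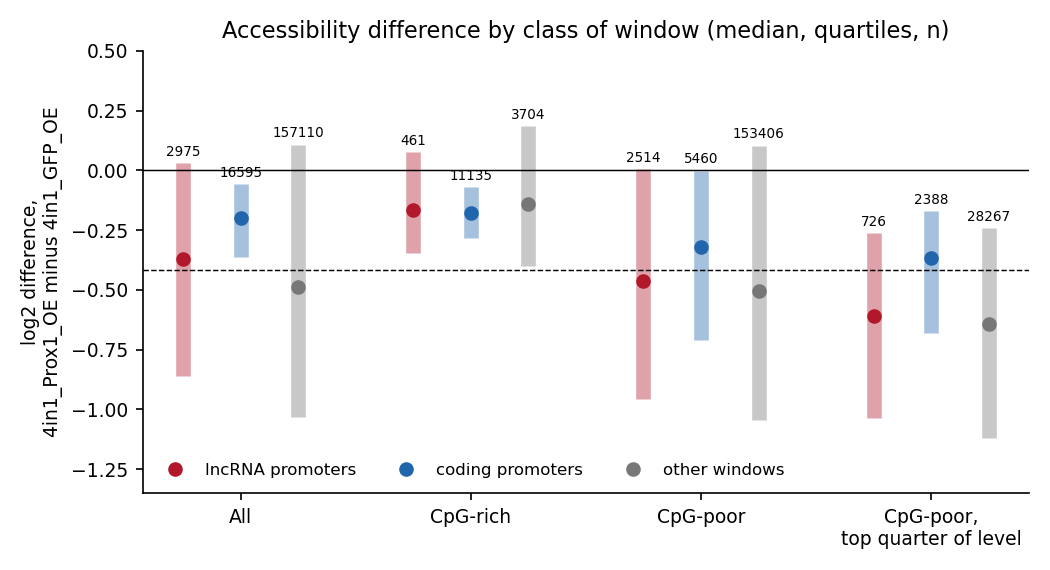
Log2 difference of mean normalized reads, 4in1_Prox1_OE minus 4in1_GFP_OE, for lncRNA promoters, coding promoters and other windows, over all windows, by CpG content, and for CpG-poor windows in the highest of 4 bins of level. Points are medians, bars run from the lower to the upper quartile, numbers are windows, and the dashed line is the median of all windows (-0.42). CpG-rich lncRNA promoters sit at -0.17 beside CpG-rich coding promoters at -0.18, while CpG-poor lncRNA promoters (-0.46) sit nearer to other windows (-0.50) than to CpG-poor coding promoters (-0.32).

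The same held along GC content. The median GC content was 51.7% at lncRNA promoters, 64.7% at coding promoters and 47.8% at other windows. From the lowest to the highest of 5 bins of GC content, set to hold about equal numbers of all windows, the median difference at lncRNA promoters was -0.56, -0.68, -0.57, -0.44 and -0.17. At coding promoters it was -0.65, -0.58, -0.40, -0.30 and -0.18. In the highest bin, 27.3% of lncRNA promoters fell and 15.1% rose, against 15.5% and 5.54% of coding promoters. GC content also bears on amplification and sequencing, and its part in these differences was not tested.

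Medians were also taken by annotated type and position. The 1729 lincRNA promoters had a median of -0.40, the 854 antisense promoters -0.33 and the 287 promoters of processed transcripts -0.32. The 84 sense intronic promoters had a median of -0.52. The shares that fell were 47.7% of lincRNA, 44.1% of antisense, 44.6% of processed transcript and 54.8% of sense intronic promoters, against 48.2% of all windows. The remaining types held few windows, with medians of -0.26 for 8 bidirectional, 0.13 for 9 sense overlapping, -0.86 for 2 macro and -0.26 for both 3′ overlapping promoters. Windows over a start itself (753) had a median of -0.32, those upstream (1110) -0.36 and those downstream (1112) -0.42. Windows outside coding genes (2039) had a median of -0.39, and those in a coding gene on the opposite strand (787) -0.32. Those in a coding gene on the same strand (136) had -0.35, and those in coding genes of both strands (13) had 0.02. With the nearest coding start at 1 to 5 kb the median was -0.29, and with it over 100 kb away it was -0.48. GC content fell along the same distances, from a median of 57.2% to 49.3%. The median over windows was between -0.55 and -0.25 on each of the 19 autosomes (mean -0.38 ± 0.07, SD) and -0.30 on the X chromosome (39 windows).

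Windows on either side of the limits of the definition were compared without a test. The 167 windows up to 100 bases inside the limit around lncRNA starts had a median of -0.45, and the 172 up to 100 bases beyond it, which were not taken, had -0.50. The 22 windows taken up to 100 bases beyond the limit around coding starts had a median of -0.14, and the 18 left out up to 100 bases inside it had -0.31.

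Windows with an AP-1 motif were lower than those without. AP-1, the Fos and Jun family, binds at many fibroblast enhancers, and its motif was searched as TGACTCA on both strands. It was present in 520 lncRNA promoters (17.5%), 5.14% of coding promoters and 23.03% of all windows. LncRNA promoters with the motif had a median of -0.89, and those without had -0.30. Of those with the motif 72.1% fell and 6.73% rose, against 41.1% and 13.4% of those without. Over all windows the medians were -0.84 with the motif and -0.31 without, so the pattern was not particular to lncRNA promoters. Within every bin of GC content the lncRNA promoters with the motif had the lower median, from -0.94 against -0.47 in the lowest bin to -0.55 against -0.15 in the highest. Level was not held fixed, and in every bin those with the motif had more reads with GFP. The medians were 161 against 109 reads in the lowest bin and 370 against 214 in the highest. The part of level was not tested.

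**Figure D3:**
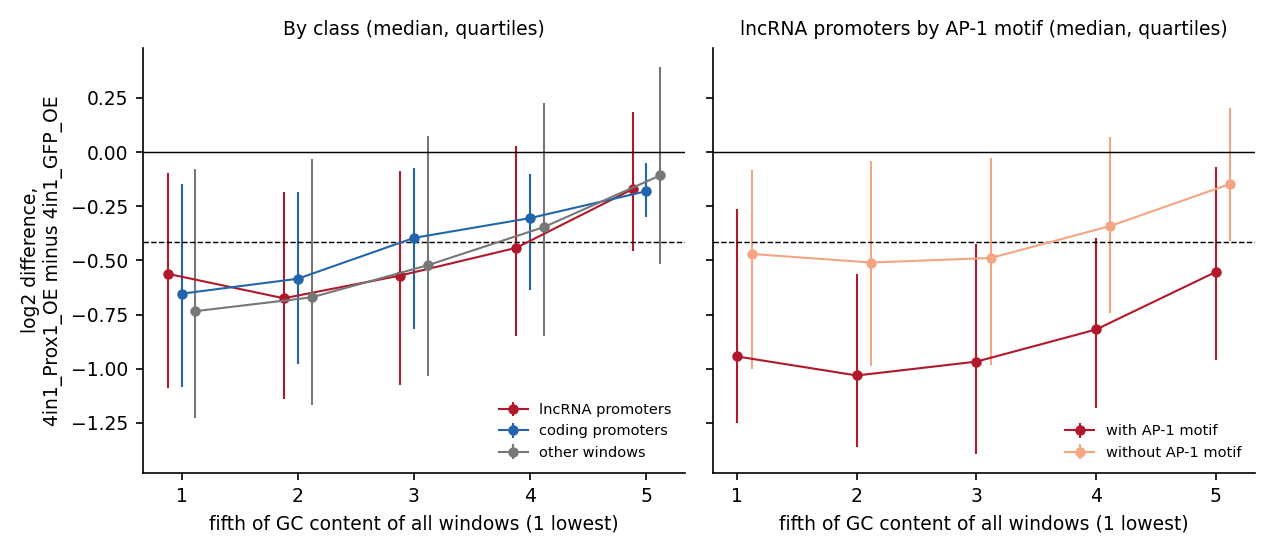
Log2 difference, 4in1_Prox1_OE minus 4in1_GFP_OE, by bin of GC content (5 bins of all windows), for the 3 classes of window (left) and for lncRNA promoters with and without an AP-1 motif (right). Points are medians, bars run from the lower to the upper quartile, and the dashed line is the median of all windows (-0.42). Medians at lncRNA promoters go from -0.56 in the lowest to -0.17 in the highest bin, and those with the motif are below those without in each bin.

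Other motifs of mesenchymal factors were rarer and went the same way. TEAD factors act downstream of the Hippo pathway, and their motif (GGAATGT) was in 172 lncRNA promoters (5.78%) and 7.69% of all windows, with a median of -0.73. RUNX factors include regulators of bone and blood, and their motif (TGTGGTT) was in 193 (6.49%, as in all windows at 6.49%), with a median of -0.62. Over all windows the medians were -0.71 with the TEAD and -0.59 with the RUNX motif, so neither pattern was particular to lncRNA promoters. Motifs common at coding promoters were also searched. The SP/KLF motif (GGGCGGGG) was in 156 lncRNA promoters (5.24%), against 24.9% of coding promoters and 3.77% of all windows, with a median of -0.19. The ETS motif (CCGGAAGT) was in 23 lncRNA promoters (0.773%) and 5.18% of coding promoters, with a median of -0.32 against -0.37 without it. The YY1 motif (AAGATGGCG) was in 3 lncRNA promoters and 1.89% of coding promoters. The CRE motif (TGACGTCA) was in 25 (0.840%), with a median of -0.26. The CTCF motif (AGGGGGCGC) was in 23 (0.773%), with a median of -0.18. Over all windows the medians were -0.17 with the SP/KLF, -0.22 with the ETS, -0.22 with the CRE and -0.15 with the CTCF motif. The median GC content of lncRNA promoters with these motifs ran from 59.7% (CRE) to 65.2% (SP/KLF), against 51.7% of all lncRNA promoters.

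Motifs of hepatocyte factors were searched as well. The FOX motif (TGTTTAC) was in 76 lncRNA promoters (2.55%, against 2.65% of all windows), with a median of -0.33 against -0.37 without it, and the GATA motif (AGATAAG) was in 48 (1.61%, against 1.74%), with -0.47. The HNF4 motif (CAAAGTCCA) was in 4 windows (0.134%, against 0.303%) and the C/EBP motif (TTGCGCAA) in 1. The Prox1 consensus with up to 1 mismatch was in 12 lncRNA promoters (0.403%) and 0.305% of all windows. Of these 12, 7 fell and 1 rose, with a median of -0.59. Of all windows with this consensus, 64.3% fell and 5.02% rose, with a median of -0.75. Matches of different motifs shared at least 1 base in 3 lncRNA promoters. A match describes the letters and not binding.

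Of a list of 17 lncRNAs known from work on chromatin and nuclear organisation, 16 were in the annotation and 13 had a promoter window. In this and the next lists, genes absent from the annotation could have no window. Windows within 1 kb of a coding start were also left out by the definition. At the most accessible window of each gene 3 (23.1%) fell and 0 rose, against 48.2% and 14.9% of all windows (13 were lower as deposited, and 9 were above the median of all windows). Over all 24 promoter windows of these genes 8 (33.3%) fell and 0 rose. The most accessible windows had a median GC content of 60.2% and a median CG ratio of 0.87. Of all CpG-rich lncRNA promoters, 21.7% fell and 11.1% rose, which is nearer to the shares of this list. Airn, the imprinted RNA that silences Igf2r in cis, fell the most, from 331 reads with GFP to 138 with Prox1 at its start (-1.26). Lncpint, an RNA induced by p53, fell from 695 to 368 reads (-0.92). Firre, which contributes to nuclear architecture, fell from 361 to 259 reads (-0.47), which is 0.06 below the median of all windows. Malat1 of nuclear speckles had 699 and 584 reads (-0.26), and Neat1, the scaffold of paraspeckles, had 560 and 532 (-0.08). Kcnq1ot1, another imprinted silencer, had 377 and 284 (-0.41). These 3 were in neither list, and their differences turn to 0.16, 0.34 and 0.01 when centred. At the X inactivation centre, Xist had 113 and 92.9 reads (-0.28) at its most accessible window, its antisense partner Tsix 97.3 and 68.0 (-0.52), Jpx 323 and 275 (-0.23) and Ftx 421 and 342 (-0.30). None of these 4 windows was in a list, and all except that of Tsix turn positive when centred. A less accessible window of Ftx fell from 105 to 66.3 reads (-0.67). Pvt1, the neighbour of Myc, had 528 and 492 reads (-0.10, or 0.32 centred).

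Hosts of small RNAs had higher median levels than the other lists described. Of 39 listed genes 29 were in the annotation and 20 had a promoter window. Their most accessible windows had medians of 542 reads with GFP and 443 with Prox1 and a median difference of -0.19 (0.22 centred). Among these 20 windows 3 (15.0%) fell and 0 rose. Over all 26 windows of these genes 6 (23.1%) fell and 1 (3.85%), at Mir99ahg, rose, again below the shares of all windows. The most accessible windows had a median GC content of 61.4% and a median CG ratio of 0.70. Of CpG-rich lncRNA promoters, 21.7% fell and 11.1% rose. Dnm3os, a host of microRNAs of mesenchymal cells, fell from 756 to 506 reads (-0.58), and its second window fell from 308 to 158 (-0.97). Carmn, the host of smooth muscle microRNAs, fell from 269 to 157 (-0.78), and the snoRNA host Snhg20 fell from 585 to 405 (-0.53). The other snoRNA hosts Snhg3, Snhg5, Snhg6, Snhg8, Snhg12, Snhg15 and Snhg17 were in neither list at their most accessible windows, with differences from -0.32 to -0.17 that all turn positive when centred. The imprinted H19 had 153 and 201.1 reads (0.39), the highest difference among the most accessible windows of the list, and Meg3 had 326 and 265 (-0.30, or 0.12 centred), neither of them in a list.

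Of 43 lncRNAs listed for developmental patterning, 35 were in the annotation and 17 had a promoter window. At the most accessible window of each 4 (23.5%) fell and 0 rose, also below the 48.2% and 14.9% of all windows. Over all 22 windows of these genes 7 (31.8%) fell and 0 rose. The most accessible windows had a median GC content of 61.7% and a median CG ratio of 0.74, and 21.7% of CpG-rich lncRNA promoters fell. Bvht, an RNA of cardiac commitment, fell from 267 to 105 reads (-1.34). Rmst, an RNA of neural differentiation, fell from 269 to 146 (-0.89), Pantr1, a neighbour of Pou3f3, from 201.2 to 130 (-0.63), and Trp53cor1, beside Cdkn1a, from 529 to 372 (-0.51). The Hox cluster RNAs Hoxaas2, Hoxaas3, Hoxd3os1 and Haglr were in neither list, with differences of 0.09, 0.15, -0.17 and -0.21, of which the latter pair turns positive when centred. The list's median difference was -0.21 (0.21 centred).

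No lncRNA promoter lay over coding sequence of Prox1, which the transgene carries. Windows whose nearest coding gene is a mesenchymal or other-fate factor numbered 60, of which 25 (41.7%) fell and 4 (6.67%) rose, both below the 48.2% and 14.9% of all windows. The most accessible was G630016G05Rik beside the homeobox gene Meis2, with 601 and 596 reads (-0.01, or 0.40 centred). Gm11476 near Snai1, a driver of the mesenchymal state, fell from 505 to 332 (-0.60), Gm29101 in Twist2 from 530 to 389 (-0.45) and A830082K12Rik beside Nr2f1 from 482 to 366 (-0.40), the last of which turns to 0.02 when centred. Windows nearest to hepatocyte factors and proteins numbered 15, of which 3 fell and 2 rose, both shares below the 48.2% and 14.9% of all windows. These 15 windows had median levels of 74.9 reads with GFP and 72.2 with Prox1, against 122 and 88.3 over all windows. Their median difference was -0.20 (0.21 centred). The most accessible, Gm14321 near Cebpb, had 753 and 593 reads (-0.34, or 0.07 centred). Gm16064 near Tbx3 fell from 258 to 123 (-1.07), and Tbx3os2 had 272 and 233 (-0.23, or 0.19 centred). The Tbx3 locus is not particular to hepatocytes, since its Tbx3os1 stands in the list for developmental patterning. Gm30097 near the fibrinogen gene Fgg had 358 and 407 (0.18) and Gm28182 near Onecut1 had 106 and 126 (0.26). Apart from Gm16064, none of these 5 windows was in a list.

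Each lncRNA promoter was set beside its nearest coding promoter. For 2506 lncRNA promoters the nearest coding gene had a promoter window of its own, and across these pairs the differences had a Pearson's r of 0.09 and a Spearman's rho of 0.10 (pairs share libraries, and neighbours can be shared between pairs). Over all pairs 21.7% of the coding promoters fell and 4.47% rose. Where the lncRNA promoter fell (1210 windows) these shares were 23.7% and 3.55%, where it rose (298 windows) they were 18.8% and 5.70%, and where it was in neither list (998 windows) they were 20.2% and 5.21%. With the coding start at 1 to 5, 5 to 20, 20 to 100 and over 100 kb, Pearson's r was 0.15, 0.11, 0.06 and 0.10.

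Windows of the same lncRNA gene also differed. More than 1 promoter window lay nearest to each of 305 genes, and the median range of their differences was 0.57. All windows fell at 71 of these genes and all rose at 11, whereas 28 had a window in each list and 58 had none in a list. Of all lncRNA promoters, 46.5% fell, 12.3% rose and 41.2% were in neither list. Whether windows of the same gene were more alike than unrelated windows was not tested. Mir99ahg was one of the 28, with a window that rose from 36.6 to 76.3 reads (1.06) at one start and a window that fell from 295 to 202 (-0.55) at another. At Airn, 3 of 4 windows fell (-1.26, -1.27 and -0.88), and the fourth had 171 and 142 reads (-0.26, or 0.16 centred). Of the 4 windows within 1 kb of a Lncpint start, 3 fell, and the other had 236 and 241 reads (0.04). One of those that fell lies nearer to a start of 2210408F21Rik and was counted there among the 305 genes.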

How the data were processed

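The authors aligned trimmed reads to mm10 with Bowtie2, corrected for Tn5 insertion preferences and filtered the alignments. Which caller gave the peaks is unclear, since MACS2 stands in the methods and Genrich in the reporting summary. Per the submitters' processing notes, DiffBind 3.4.11 was used. The authors deposited log2 mean normalized read counts per window over both groups and per group. The fold, p-value and FDR columns hold the authors' own comparison and were not used. The deposited peak lists carry coordinates only. Their threshold is not in the files, while the study names one on the adjusted P value. The reporting summary calls replicates independent biological ones. Depth per library and counting intervals are unknown, as no values per library were used.

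Windows (201 bases, 1-based) were classed by edge distance to starts of the GENCODE M21 basic annotation, without TEC genes, with pandas 2.3.3 and numpy 2.4.6 under Python 3.11.15 (scipy 1.17.1 for intervals). All lay inside GRCm38 chromosome ends. Classing was tested on simulated data. No test was run. Windows were named by list membership (most accessible window per gene), as the 5 lowest and 5 highest differences at or above the median level, as the 5 most accessible, and as the 5 most accessible beside each list of coding neighbours. Members, lists and motifs were chosen with earlier results of these data known. Motifs were consensus letters, not the study's matrices. The result of 1 list is not reported here.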

Additional observations from a re-analysis of the deposited data

How the results depend on the processing

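The median difference of -0.37 was 0.047 after centring on the median of all windows and 0.042 after scaling to equal totals, which turns its sign, and -0.42 without the lowest of 4 level bins. The share at least 2-fold lower (19.5%) became 5.31% with centring, 5.45% with equal totals, 20.97% without the lowest bin, 16.2% with a pseudocount of 8 and 38.2% at 1.5-fold. The share at least 2-fold higher (5.65%) became 10.7%, 10.6%, 2.98%, 4.74% and 10.6%, respectively. Without the lowest bin, 51.1% were in the GFP-enriched and 8.82% in the Prox1-enriched list. These results stayed within their 95% intervals (binomial order statistics for the median, Wilson for shares, counting windows only) with starts within 500 bases or 2 kb, coding starts over 5 kb away, distance from the window centre, TEC genes added, 1 window per gene, autosomes, and the comprehensive annotation, which was added after seeing the data. Any overlap with a list region applied to the list shares only, and they stayed within their intervals. Among named windows, A830082K12Rik was the only listed one of 37 whose sign turned, to 0.020 with centring and 0.015 with equal totals, while 43 of 60 unlisted ones turned with centring. The cause was not tested. No paired analysis was possible because values came as group means, and for the same reason no replicate was left out.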
